A study of Mus musculus with 7 samples.

Results

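The 8 genes described here encode subunits of the voltage-gated sodium channels: the pore-forming alpha subunits Scn1a, Scn2a1, Scn3a, Scn8a and Scn9a and the auxiliary beta subunits Scn2b, Scn3b and Scn4b. They were found by symbol among the 23413 gene symbols of the count data, where all 8 were present, and all 8 were among the 15881 genes with enough counts to be tested. The set counts as chosen by the measured differences between the diets in these same libraries, which were known when it was drawn up, so the differences between the diets are given for these genes as a description and without a test.

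RNA was sequenced from the cortex of 7 mice of the APP/PS1 model, B6.Cg-Tg(APPswe,PSEN1dE9)85Dbo, in which mutant human amyloid precursor protein and mutant human presenilin 1 are expressed from transgenes. All 7 mice carried the transgenes, and no wild-type cortex was among the libraries, so the values bear on the diets within this model. Feeding began at 6 months of age and lasted 7 months, and tissue was taken at 13 months. The control diet (CD, called SD in the sample labels) was fed to 4 mice and provided 74% of its energy as carbohydrate, 10% as protein and 16% as fat. The ketogenic diet (KD) was fed to 3 mice and provided less than 0.5% as carbohydrate, 10% as protein and 90% as fat. One library was made per mouse from 10 mg of frozen cortex. The sex of these mice was not given in the labels.

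A voltage-gated sodium channel opens when the neuronal membrane is depolarized and carries the inward current that forms the upstroke of the action potential. A single large alpha subunit forms the pore, the voltage sensors and the inactivation gate, and beta subunits bind to it, tune its gating and link it to adhesion molecules. In cortex, Nav1.1 (Scn1a) is best known from parvalbumin interneurons, Nav1.2 (Scn2a1) and Nav1.6 (Scn8a) from the axons of excitatory neurons, and Nav1.3 (Scn3a) from the developing brain. Beta subunits are also substrates of the beta- and gamma-secretases that release amyloid peptide from its precursor.

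The genes for Scn3a, Scn2a1, Scn1a and Scn9a lie in that order within one stretch of chromosome 2, Scn8a lies on chromosome 15, and the 3 beta genes lie on chromosome 9, where Scn2b and Scn4b are neighbours. In the GENCODE M21 annotation of mm10 the positions were chr2:65457118-65567627 for Scn3a, chr2:65620771-65767447 for Scn2a1 (listed there as Scn2a), chr2:66270778-66440840 for Scn1a, chr2:66480080-66634962 for Scn9a and chr15:100869858-101045938 for Scn8a. The beta genes were at chr9:40269217-40291618 (Scn3b), chr9:45117782-45130070 (Scn2b) and chr9:45138395-45154152 (Scn4b). Each of the 5 alpha coding sequences is spread over a transcript of 27 exons and measures from 5841 to 6027 bases, while the beta coding sequences measure 645, 645 and 684 bases.

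The alpha genes are close relatives, and reads of 50 bases were counted per gene, so the sequences below show a place where such a read tells the family apart. The window of 50 coding bases with the most differences lay in exon 13, in the intracellular linker between the first and the second domains, where 39 of 50 positions differed among the 5 genes and are capitalized, 5′ to 3′ on the coding strand. It was located at chr2:66323364-66323413 in Scn1a, chr2:65707259-65707308 in Scn2a1, chr2:65507199-65507248 in Scn3a, chr15:101002062-101002111 in Scn8a and chr2:66537322-66537371 in Scn9a, with Scn1a, Scn3a and Scn9a on the minus strand.
Scn1a: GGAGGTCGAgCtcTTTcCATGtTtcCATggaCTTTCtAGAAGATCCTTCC
Scn2a1: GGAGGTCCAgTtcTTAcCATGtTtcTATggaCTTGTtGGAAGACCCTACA
Scn3a: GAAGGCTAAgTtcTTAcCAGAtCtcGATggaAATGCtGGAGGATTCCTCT
Scn8a: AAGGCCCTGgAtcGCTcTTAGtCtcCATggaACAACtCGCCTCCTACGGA
Scn9a: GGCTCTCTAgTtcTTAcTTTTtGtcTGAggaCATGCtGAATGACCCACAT
Over the whole coding sequence, identity between alpha genes ranged from 70.2% (Scn8a and Scn9a) to 83.2% (Scn2a1 and Scn3a), and identity between beta genes from 40.0% to 49.5%. The share of a gene's 50-base coding windows that also occurred in another of the 8 genes was 7.54% for Scn1a, 11.3% for Scn2a1, 13.2% for Scn3a, 8.89% for Scn9a and 0.101% for Scn8a, and no window of the 3 beta genes was shared. How the counting treated reads that fit more than 1 gene, or a gene and an antisense partner, was not given in the sources used here. An annotated gene on the opposite strand overlaps each of Scn1a, Scn3a, Scn9a, Scn2b and Scn3b. Scn9a is also overlapped by a gene on its own strand, Gm13627.

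The libraries held from 22272883 to 36614954 counts. KD replicate 3 and CD replicate 4 stood apart from the other 5 on the first principal component of all tested genes (46.7 and 39.5, against -25.2 to 2.39), so the differences between the diets and the levels of the 8 genes are also given without KD replicate 3, and the differences also without both. KD replicate 3 was higher or lower than all 6 other libraries for 40.3% of the tested genes. In the comparison of all genes between the diets, 0 of 15881 had a Benjamini-Hochberg adjusted p under 0.05 by edgeR's quasi-likelihood test or by DESeq2, and 506 (3.19%) had a raw p under 0.05 by edgeR, or 923 of 15660 (5.89%) with the replicate number as a block. At the raw threshold of 0.01, 51 genes (0.321%) passed, or 182 with the block.

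KD replicate 3 was the highest or the lowest of the 7 libraries for all 8 subunit genes, beside 40.3% of all tested genes. It was the highest for Scn2a1, Scn3a, Scn9a and Scn3b and the lowest for Scn1a, Scn8a, Scn2b and Scn4b. CD replicate 1 was at the opposite end for 6 of them, all but Scn9a and Scn2b, beside 25.5% of all genes for which that library was the highest or the lowest. CD replicate 4, the other library that stood apart, was at neither end for any of the 8, beside 38.1% of all genes. The CD and KD ranges overlapped for all 8 genes, where they did not overlap for 4.11% of the tested genes. Levels below are in CPM, a gene's counts relative to the TMM-scaled total of its library, and are comparable between libraries. In bulk tissue, fewer cells of a type and less RNA per cell cannot be told apart.

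**Figure D1:**
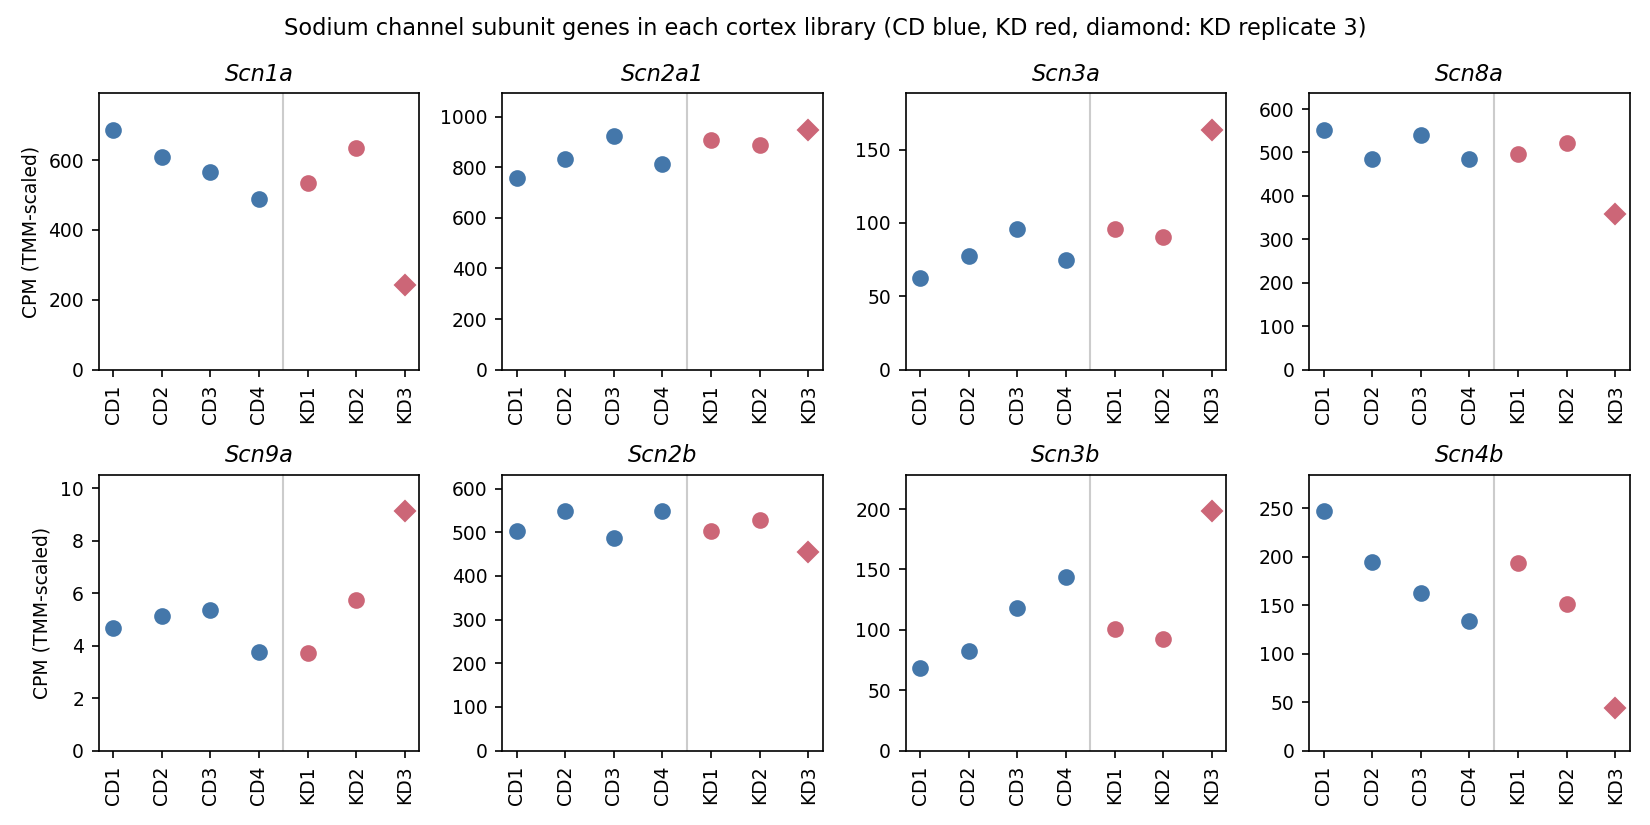
Level of each subunit gene in each library, in TMM-scaled CPM on axes that start at 0. Blue points are the 4 CD mice and red points the 3 KD mice, with KD replicate 3 drawn as a diamond. KD replicate 3 lies at one end of every panel, for example at 44.2 CPM for Scn4b where the other 6 libraries lie between 134 and 248.

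Scn1a encodes Nav1.1, whose loss in interneurons underlies a severe childhood epilepsy. It measured 688, 608, 567 and 488 CPM in CD replicates 1 to 4 and 534, 635 and 243 CPM in KD replicates 1 to 3. KD replicates 1 and 2 lay within the CD range, and KD replicate 3 lay far under it, at 41.4% of the median of the other 6. The means were 587 ± 83.3 CPM for CD (SD, n = 4) and 471 ± 204 CPM for KD (SD, n = 3), a log2 fold change of -0.32 ± 0.29 (SE). Without KD replicate 3 the log2 fold change was -0.01 ± 0.14 (SE), and without CD replicate 4 as well it was -0.083.

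Scn2a1 encodes Nav1.2, the main channel of immature and unmyelinated axons. It measured 756, 832, 923 and 812 CPM in the CD libraries and 909, 889.8 and 949 CPM in the KD libraries. It varied little, with 1.26-fold between the highest and the lowest library, and CD replicate 3 lay among the KD values. The log2 fold change was 0.14 ± 0.09 (SE), and 0.11 ± 0.10 (SE) without KD replicate 3 or 0.11 without both libraries, so for this gene the size of the difference depended little on that library.

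Scn3a encodes Nav1.3, which is abundant before birth and declines afterwards. It measured 62.7, 77.1, 95.9 and 74.6 CPM in the CD libraries and 95.7, 90.2 and 164 CPM in the KD libraries. KD replicates 1 and 2 lay in the upper part of the CD range without passing CD replicate 3, and KD replicate 3 was 1.96 times the median of the other 6. The means were 77.6 ± 13.7 CPM for CD (SD, n = 4) and 117 ± 40.9 CPM for KD (SD, n = 3), a log2 fold change of 0.59 ± 0.22 (SE), the largest in size among the 8. Without KD replicate 3 it was 0.26 ± 0.16 (SE), and 0.25 without CD replicate 4 as well. Of the 8 genes, 1 (Scn3a) had a raw p under 0.05 in the fit over all genes, beside 3.19% of all genes (1.66% higher and 1.52% lower in KD). In the blocked fit, which drops CD replicate 4, there were 2 (Scn3a and Scn3b), beside 5.89% of all genes. None of the 8 had one without KD replicate 3, nor without CD replicate 1, 2 or 4. There was 1 without CD replicate 3 (beside 1161 of 15729 genes) and 1 without KD replicate 2 (beside 734 of 16087). Without KD replicate 1 there were 2, beside 648 of 16170 genes. Since the genes were chosen with this comparison known, nothing is read from these counts.

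Scn8a encodes Nav1.6, which is concentrated at the axon initial segment and at nodes of Ranvier. It measured 553, 486, 541 and 485 CPM in the CD libraries and 496, 521 and 358 CPM in the KD libraries. The first 6 of these libraries differed by at most 1.14-fold, and KD replicate 3 stood at 70.5% of their median. The log2 fold change was -0.17 ± 0.13 (SE), -0.02 ± 0.09 (SE) without KD replicate 3, and -0.047 without both libraries.

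Scn9a encodes Nav1.7, known chiefly from pain-sensing neurons of the periphery. It rested on 86 to 207 counts per library and measured 4.69, 5.13, 5.35 and 3.76 CPM in the CD libraries and 3.71, 5.75 and 9.16 CPM in the KD libraries. Both the lowest and the highest value were KD libraries, so the KD group enclosed the CD group. The log2 fold change was 0.39 ± 0.29 (SE) and went to 0.00200 ± 0.25 (SE) without KD replicate 3 and to -0.084 without both libraries.

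Among the beta subunits, Scn2b encodes the beta2 subunit, which is joined to the alpha subunit by a disulfide bond. It measured 503, 549.9, 487 and 549 CPM in the CD libraries and 503, 528 and 455 CPM in the KD libraries. It was the steadiest of the 8 genes, with 1.21-fold between the highest and the lowest library. The log2 fold change was -0.08 ± 0.09 (SE), -0.02 ± 0.09 (SE) without KD replicate 3, and 0.0098 without CD replicate 4 and KD replicate 3.

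Scn3b encodes the beta3 subunit, which binds its alpha subunit without a disulfide bond. It measured 68.4, 82.8, 118 and 144 CPM in the CD libraries and 101, 92.5 and 199 CPM in the KD libraries. The CD group alone spanned 2.10-fold, more than any other of these genes within that group, and both of the first KD libraries lay inside it. The log2 fold change was 0.34 ± 0.32 (SE). Its sign turned without KD replicate 3, to -0.10 ± 0.28 (SE), and it was 0.11 without both libraries. With the replicate number as a block it was 0.49 ± 0.12 (SE).

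Scn4b encodes the beta4 subunit, linked by a disulfide bond and known for its part in the resurgent sodium current of fast-firing neurons. It measured 248, 195, 162 and 134 CPM in the CD libraries and 193, 151 and 44.2 CPM in the KD libraries. It spanned 5.60-fold over the 7 libraries, the widest of the 8 genes, and 1.86-fold without KD replicate 3, which stood at 24.9% of the median of the other 6. The means were 185 ± 49.0 CPM for CD (SD, n = 4) and 129.6 ± 76.9 CPM for KD (SD, n = 3). The log2 fold change was -0.51 ± 0.43 (SE), -0.10 ± 0.24 (SE) without KD replicate 3, and -0.22 without both libraries.

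Across the 8 genes, 4 log2 fold changes were above 0 and 4 below, with a median of 0.03, where the median of all tested genes was -0.00329. Without KD replicate 3 they ran from -0.10 to 0.26. With the replicate number as a block, Scn3b was not the only gene whose value moved away from 0. Scn4b went to -0.85 ± 0.36 (SE), Scn1a to -0.50 ± 0.26 (SE) and Scn8a to -0.22 ± 0.14 (SE). Nearer to 0 than without the block were Scn3a (0.54 ± 0.12, SE), Scn9a (0.21 ± 0.24, SE), Scn2a1 (0.13 ± 0.09, SE) and Scn2b (-0.05 ± 0.08, SE).

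**Figure D2:**
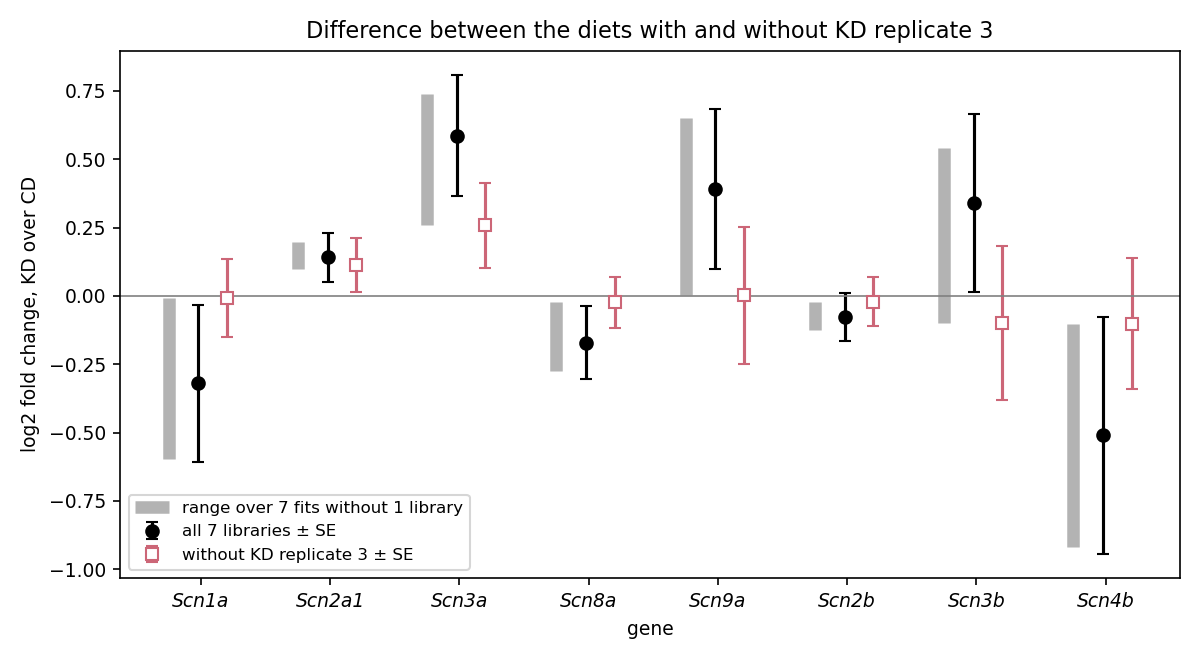
Log2 fold change of each subunit gene, KD over CD, from the fit over all genes. Black points use all 7 libraries and open red squares leave out KD replicate 3, each with its standard error, and grey bars span the 7 fits that each leave out 1 library. The squares of all genes lie nearer to 0 than the points, and the grey bar of Scn3b crosses 0.

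To compare genes with each other, CPM was divided by the length of the gene's merged exons in kilobases. On this scale Scn2b was the most abundant transcript of the 8, at 109.7 ± 7.38 CPM per kb (SD, n = 7), followed by Scn2a1 at 68.1 ± 5.44, Scn1a at 48.2 ± 13.1, Scn4b at 32.3 ± 12.8, Scn8a at 31.2 ± 4.08, Scn3b at 21.1 ± 8.11, Scn3a at 7.57 ± 2.64 and Scn9a at 0.420 ± 0.144 CPM per kb. Without KD replicate 3 the order of the means was the same, and Scn1a stood at 52.6 ± 6.46, Scn4b at 36.2 ± 8.18, Scn3b at 18.5 ± 4.91 and Scn3a at 6.64 ± 1.07 CPM per kb (SD, n = 6). The order of levels was not used in choosing the genes, but which genes were neighbours was read from the same values. Each pair of neighbours in this order was compared within the same mouse by a two-sided exact sign-flip permutation test over the 7 mice, in which p cannot go below 0.015625, with Benjamini-Hochberg adjustment over the 7 pairs. The level of Scn2b was 1.61-fold that of Scn2a1 and higher in 7 of 7 mice (exact permutation p = 0.015625, adjusted p = 0.0273). Scn2a1 was 1.47-fold Scn1a and higher in 6 of 7 mice (exact permutation p = 0.03125, adjusted p = 0.0438), the exception being CD replicate 1. Without KD replicate 3 this pair was no longer separated. Scn1a exceeded Scn4b 1.58-fold, Scn3b exceeded Scn3a 2.74-fold and Scn3a exceeded Scn9a 18.0-fold, each in 7 of 7 mice and each with an adjusted p of 0.0273 by the exact permutation test.

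Scn4b and Scn8a were not separated beyond their spread, with Scn4b higher in 3 of 7 mice (exact permutation p = 0.844, adjusted p = 0.844), and neither were Scn8a and Scn3b, with Scn8a higher in 6 of 7 mice (exact permutation p = 0.0625, adjusted p = 0.0729). Without KD replicate 3, Scn8a stood above Scn3b in every mouse, and this pair was separated. In the library KD replicate 3 the order differed from that of the means. There Scn3b, at 36.4 CPM per kb, stood above Scn8a (22.7), Scn1a (21.8) and Scn4b (8.88), and Scn3a (13.1) stood above Scn4b. With the length of the longest annotated transcript in place of merged exons, Scn2b was 1.13-fold Scn2a1 and no longer separated from it (exact permutation p = 0.0781, adjusted p = 0.0911), and Scn8a ranked above Scn4b, 1.46-fold (exact permutation p = 0.03125, adjusted p = 0.0438). The number of separated neighbours was 5 with either length, but these were not the same 5 pairs. Divided by coding length alone, all 3 beta genes ranked above every alpha gene, so the order between alpha and beta genes depended on the length used.

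**Figure D3:**
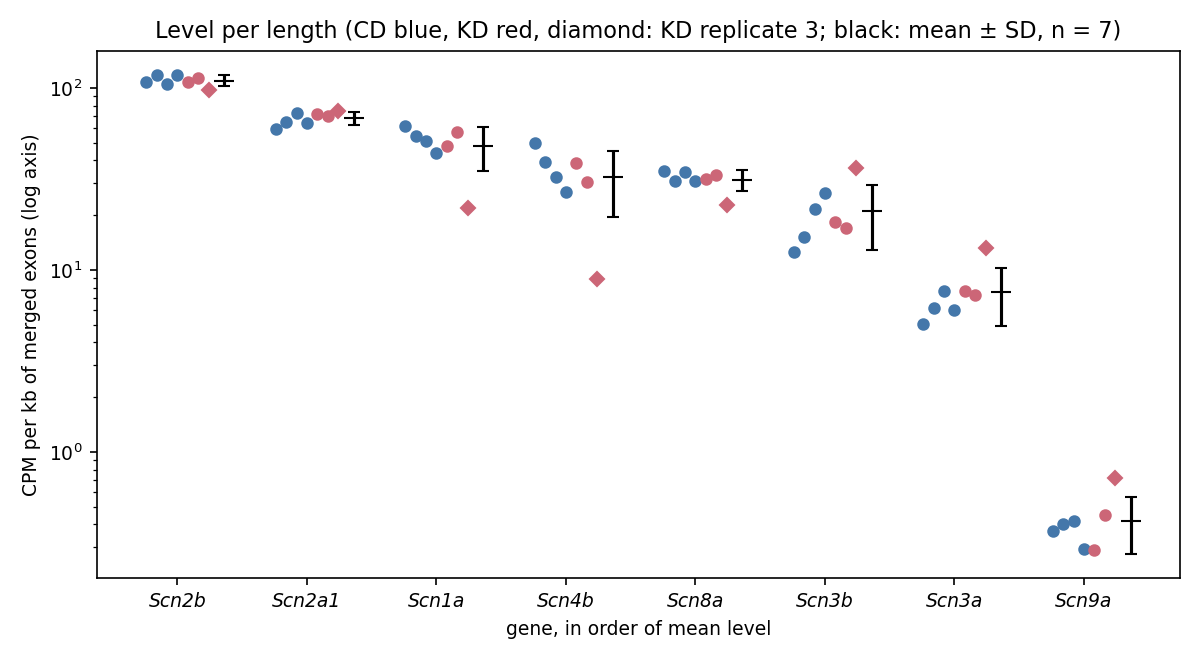
Level per length of each subunit gene, in CPM per kb of merged exons on a log axis, in order of the mean. Points are libraries (CD blue, KD red, KD replicate 3 as a diamond) and black bars show the mean ± SD over the 7 mice. Scn2b is at the top and Scn9a, at 0.420 CPM per kb, at the bottom, while the KD replicate 3 diamonds change the order in the middle.

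The makeup of the alpha transcripts was then expressed as each gene's share of the summed CPM per kb of the 5 alpha genes. In the 6 other libraries Scn2a1 made up 36.8% to 45.0% and Scn1a 30.2% to 38.2%, and Scn8a 19.6% to 21.7%. In KD replicate 3 the share of Scn2a1 was 56.1%, that of Scn1a 16.4% and that of Scn8a 17.1%. The share of Scn3a was 9.88% there, against 3.11% to 4.83% in the other libraries, and that of Scn9a was 0.539%, against 0.183% to 0.268%. CD replicate 1 was the only library in which Scn1a (38.2%) exceeded Scn2a1 (36.8%). Among the 3 beta genes on the same scale, Scn2b held 63.4% to 70.6% in all 7 libraries, KD replicate 3 included at 68.3%. There Scn4b made up 6.21% and Scn3b 25.5%, where Scn4b had exceeded Scn3b in each of the other 6 libraries (15.7% against 15.4% in CD replicate 4, the closest). These shares are parts of a whole, so one share cannot change without another.

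**Figure D4:**
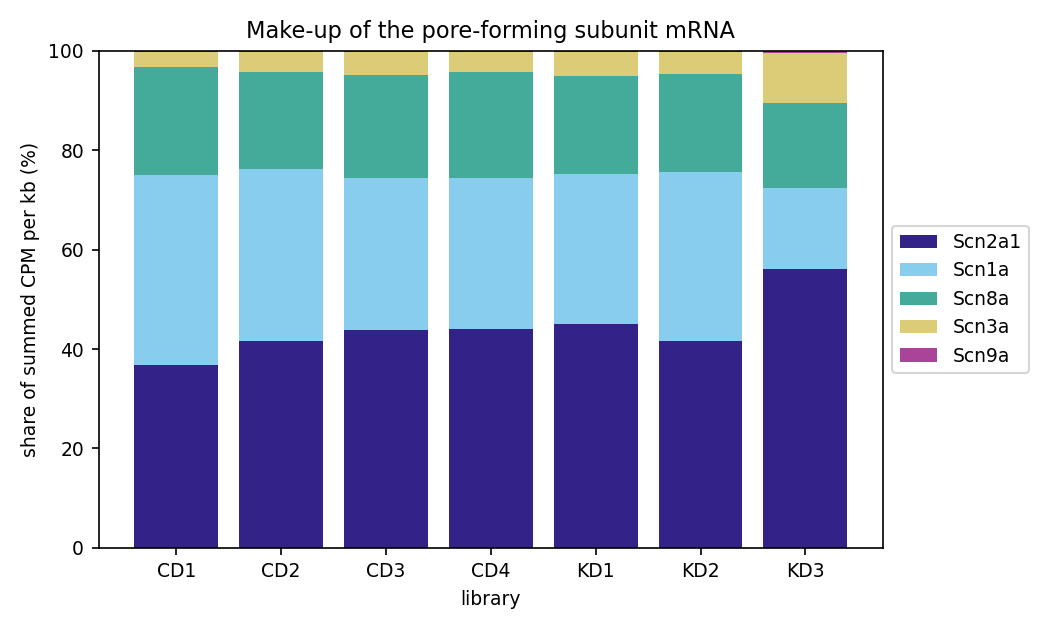
Share of each alpha gene, in percent, in the summed CPM per kb of the 5 alpha genes, by library. The 6 other libraries have a Scn1a share of 30.2% to 38.2%, and KD replicate 3 has 16.4%, with larger shares of Scn2a1 and Scn3a.

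Likeness between 2 genes was measured as the root mean square difference of their log2 CPM over the 7 libraries, each gene centred on its own mean. Among the 8 genes, the pairs nearest to each other were Scn8a with Scn2b (0.17), Scn2a1 with Scn2b (0.18) and Scn2a1 with Scn8a (0.27), which are genes that varied little. Of the genes that varied more, Scn4b was nearest to Scn1a (0.32), Scn3a to Scn9a (0.27) and Scn3b to Scn3a (0.29), and Scn4b and Scn3b were the farthest apart (1.19). The values are a description over 7 libraries of which 1, KD replicate 3, was at the end of every gene. Over the 6 libraries without it, Scn4b was again nearest to Scn1a (0.22), while Scn3a was nearest to Scn2a1 (0.12) and Scn9a to Scn1a (0.16). Scn3b then lay about as near to Scn2a1 (0.314) as to Scn3a (0.315).

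Over all tested genes, those most like Scn1a were Osbpl1a (0.12), Rcan2 (0.13) and Gls2 (0.13), and those most like Scn8a were Wdr76 (0.05), Zbtb18 (0.06) and 2900026A02Rik (0.06). Scn4b was most like Kcng4, which encodes a modifying potassium channel subunit (0.19), Sema7a, a membrane-anchored semaphorin (0.19), and Hr (0.22). In KD replicate 3 these 3 genes measured 2.12, 45.9 and 8.18 CPM, where the other libraries measured from 7.12 to 12.9, from 112 to 221 and from 18.0 to 38.4 CPM. On the opposite side, Scn3a was most like Plxnc1, a semaphorin receptor (0.09), and Gpr149 (0.09), Scn9a most like Cdhr2 (0.08), Egfl6 (0.08) and Tacr2 (0.09), and Scn3b most like Spon1 (0.10), Rnase6 (0.12) and Ryr3 (0.13). Scn2a1 was most like Dcun1d5, Smarcad1 and Ccdc85a (0.03 each), and Scn2b most like Atg7 (0.03), Dlst (0.03) and Slc3a2 (0.04). Rnase6 and Tacr2 stood at about 1 CPM or less, where values are imprecise. Without KD replicate 3, Osbpl1a was only 1370th of all tested genes in likeness to Scn1a and Kcng4 517th to Scn4b, whereas Smarcad1 stayed 4th to Scn2a1 and Spon1 6th to Scn3b.

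Marker lists for the cells and regions that cortex tissue could hold were read beside these genes. Cortical neurons were present in every library, with Slc17a7, the vesicular glutamate transporter of excitatory cortical neurons, at 429 to 632 CPM, and no pan-neuronal marker of 8 was at 0. For genes of fast-conducting axons, which include neurofilaments and fast potassium channels, the summed level of 10 genes was 2150 to 2591 CPM in CD and 1319 to 2116 CPM in KD, and KD replicate 3 was the lowest library for 9 of the 10. For 8 genes of parvalbumin interneurons the sum was 1096 to 1273 CPM in CD and 912 to 1010 CPM in KD, and KD replicate 3 was the lowest library for 4 of the 8 and the highest for 3 (Erbb4, Tac1 and Lhx6). Both sums stayed apart between the diets without KD replicate 3, whereas Scn1a, Scn4b and Scn8a overlapped between the diets with and without it. Pvalb itself, the calcium buffer that defines these interneurons, was at 18.4 CPM in KD replicate 3 and at 65.0 to 110.5 CPM elsewhere, while Lhx6, a transcription factor of the interneuron lineage, was at 20.3 CPM there and at most 18.4 CPM elsewhere.

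In the other direction, the 10 listed genes of the ventral forebrain summed to 501 CPM in KD replicate 3 and to 68.0 to 100.4 CPM in the other libraries. KD replicate 3 was the highest library for 9 of the 10, although for Otp on 1 count (0.0442 CPM), which is under the floor. Hap1 made up most of the sum there, at 408 CPM against 42.7 to 70.9. The transcription factor Lhx9 was at 10.4 CPM against at most 0.388. For striatum, the summed level of the 9 listed genes found in the data was 286 CPM in KD replicate 3, against 106 to 176 CPM. Summed olfactory bulb genes were highest in CD replicate 4 (109 CPM), next in KD replicate 3 (69.2 CPM) and at 12.6 to 21.5 CPM in the others. Calb2 (48.5 CPM) and Cdhr1 (12.7 CPM) made up most of the sum in KD replicate 3. That library was the highest for 1 of the 8 listed genes, Calb2. Its Th, Doc2g, Eomes and Tbx21 lay within the range of the libraries other than CD replicate 4, and its Sp8 and Slc6a3 above that range. Summed oligodendrocyte genes were at 1037 to 4055 CPM in CD and 1067 to 3949 CPM in KD. KD replicate 3, at one end for the sodium channel genes, was thus also at one end for the axon, ventral forebrain and striatum sums. It was the lowest library as well for the summed parvalbumin interneuron, pan-neuronal, deep cortical layer, astrocyte and endothelium genes. It was at neither end for the excitatory neuron, oligodendrocyte precursor, microglia, thalamus and sensory neuron sums. The olfactory bulb sum was highest in CD replicate 4. The oligodendrocyte sum was lowest in CD replicate 3 (1037 CPM), with KD replicate 3 next at 1067 CPM. The part of any of these lists in the values of the sodium channel genes was not tested.

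**Figure D5:**
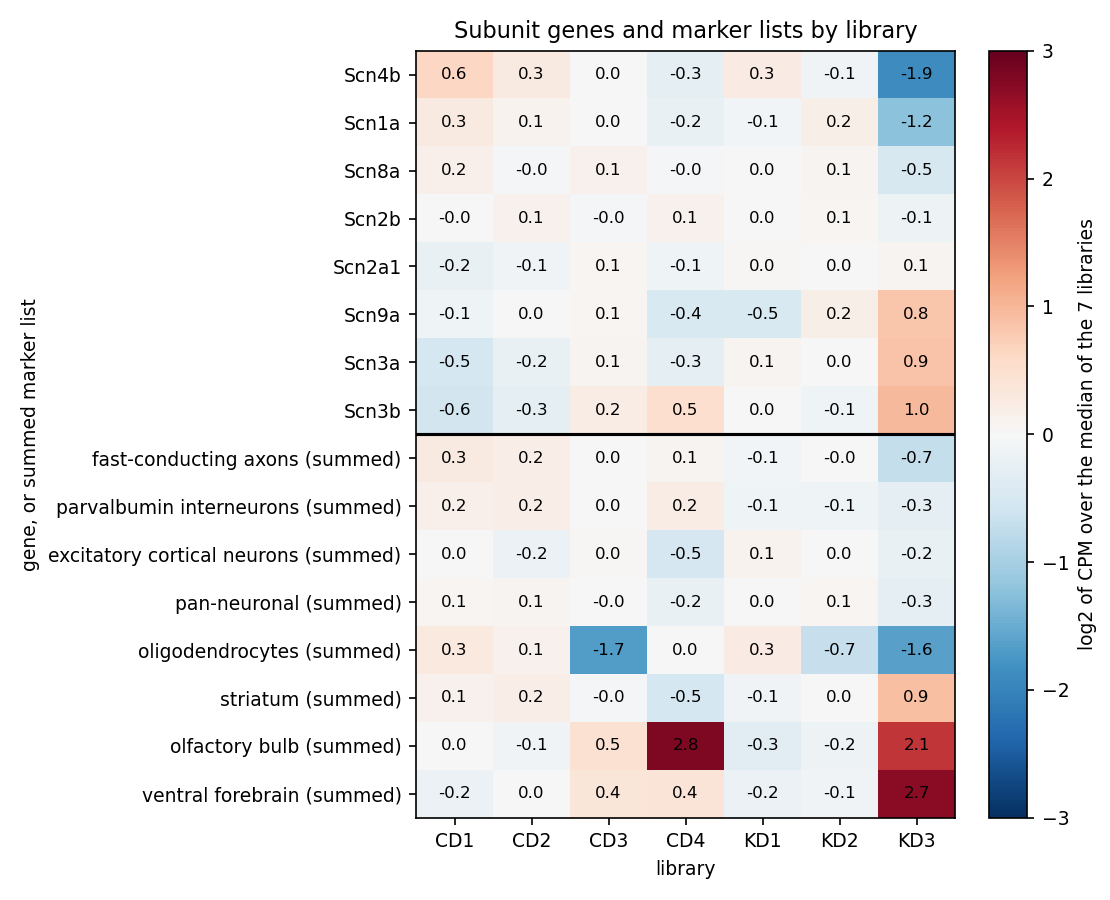
Log2 of each library's CPM over the median of the 7 libraries, for the 8 subunit genes above the line and for summed marker lists below it. Columns are libraries, red is above and blue below the median. KD replicate 3 departs furthest for Scn4b (-1.9) and, among the lists, for ventral forebrain (2.7), and CD replicate 4 for olfactory bulb (2.8).

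Genes that act with these channels were read from the fit over all genes. Of 45 listed genes, 43 had enough counts, 23 of them higher and 20 lower in KD with a median log2 fold change of 0.03. None had a raw p of 0.01 or less by edgeR's quasi-likelihood test, beside 0.321% of all genes, and 4 had a raw p under 0.05, beside 3.19%. DESeq2 placed 1 gene, Scn7a, at or under 0.01. With the replicate number as a block there were 3, among them L1cam at 0.29 and Atp1b2 at 0.38 on the log2 scale. In all of these fits no listed gene had an adjusted p under 0.05.

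Among the other sodium channel genes, 4 of 5 tested had a log2 fold change above 0. Scn7a, a sodium-sensing relative found in glia and sensory ganglia, measured 10.6, 10.6, 21.6 and 7.92 CPM in the CD libraries and 15.9, 37.1 and 32.5 CPM in the KD libraries. Here KD replicates 2 and 3 lay above all CD values and KD replicate 1 within them, for a log2 fold change of 1.17 ± 0.38 (SE), a raw p of 0.0142 by edgeR's quasi-likelihood test and a Benjamini-Hochberg adjusted p of 0.979. Without KD replicate 3 the log2 fold change was 1.07 ± 0.44 (SE).

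Of 12 proteins that anchor the channels at the axon initial segment and at nodes, 6 were higher and 6 lower, with a median log2 fold change near 0 (-0.00190). The smallest raw p among them belonged to Cntnap1, of the paranodal junction, with a log2 fold change of -0.21 ± 0.14 (SE), and Cntnap2, of the neighbouring juxtaparanode, with 0.12 ± 0.08 (SE). Of 11 intracellular regulators, 6 were higher and 5 lower. Fgf13, which binds the tail of the alpha subunit, was at 62.1 to 66.7 CPM in CD and at 64.6, 70.5 and 93.5 CPM in KD, and Nedd4, a ubiquitin ligase, at 699 to 771 CPM in CD and 735 to 867 CPM in KD. For the 9 genes of the secretases that cut beta subunits, 5 were higher and 4 lower, led by Bace2 (0.22 ± 0.15, SE) and Aph1b (-0.19 ± 0.16, SE) on the log2 scale.

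The sodium pump restores the gradient that the channels spend, and 4 of its 6 subunit genes were lower and 2 higher. Atp1b1, its beta1 subunit, measured 1357 to 1580 CPM in CD and 1275 to 1348 CPM in KD, which did not overlap, as in 4.11% of all genes. Its log2 fold change was -0.20 ± 0.09 (SE), with a raw p of 0.0453 and an adjusted p of 0.979 by edgeR's quasi-likelihood test, and -0.19 ± 0.09 (SE) without KD replicate 3.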

How the data were processed

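RNA was extracted from frozen cortex of 7 APP/PS1 mice (300 ng of RNA per library, stranded total RNA, 50-bp paired-end reads). The values deposited by the authors are raw counts per gene symbol and mouse. Per the paper's methods and the submitters' processing notes, reads were aligned to mm10 with STAR and counted per gene by its HTSeq-style counting. Versions, annotation and strand setting were not given in the sources used here.

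The diets were compared in edgeR 4.0.16 (R 4.3.3) with filterByExpr, TMM, estimateDisp, robust glmQLFit and glmQLFTest, and Benjamini-Hochberg adjustment covered all 15881 tested genes. The raw threshold of 0.01 follows the study. Groups and replicate numbers came from the sample labels. The study describes its replicates as biological, and each library was taken as 1 mouse. Library totals of 22272883 to 36614954 counts make 3 counts equal to 0.0789 to 0.133 CPM, the level under which no gene is described as present, and such floors cover counting error only. Within-group library pairs differed by far more than sampling noise (chi-square per gene 15.8 to 68.6). Levels per length used GENCODE M21 gene models, and coding sequences were aligned with mafft 7.526. Exact tests used scipy 1.17.1. The procedure was tested on simulated data.

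Libraries numbered 1 to 3 in both groups were checked for pairing. The correlations of their deviations from the group means were 0.309, 0.236 and 0.132 with a pseudocount of 0.5 CPM, and 0.251, 0.195 and 0.098 with edgeR's log CPM (prior count 2). Nothing in the labels says what a number shares, and the check was read with the blocked counts already seen. Blocked values are therefore printed where they change a count by over 1.5 times, and for the log2 fold changes of the 8 genes.

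The 8 genes and all lists were chosen with earlier results of these data known. Named were all 8, the 3 tested genes most like each, any listed gene past the raw threshold, the 2 with the smallest raw p per list, and marker genes used in a check. L1cam and Atp1b2 were named after their values were seen. Some genes and sequences that this rule takes in are not reported here. The alternatives were RLE normalization, no filter, DESeq2 1.42.0, the replicate block, leaving out each library and, for levels, another length or scaling. Leaving out CD replicate 4 and KD replicate 3 together was added after seeing the data.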

Additional observations from a re-analysis of the deposited data

Results flagged for a closer look

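Of 33 values examined in the CD group of 4, among them the 8 subunit genes and the summed marker lists, 1 had a library far from the others: the summed oligodendrocyte markers. CD replicate 3 was the lowest at 1037 CPM, where the other CD libraries were at 3309 to 4055 CPM, and on the log2 scale its gap to the nearest library took up 0.851 of the whole range, above Dixon's critical value for 4 samples. Chance gives such a gap in about 1 of 20 groups, and groups of 3 were not examined. None of the 8 subunit genes was flagged in the CD group, and CD replicate 3 was neither the highest nor the lowest library for any of them.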

How the results depend on the processing

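The raw threshold of 0.01 was met by 51 genes with edgeR's quasi-likelihood test, by 120 with DESeq2 and by 182 with the replicate block, and by 19 (without CD replicate 1) to 211 (without CD replicate 3) when 1 library was left out. It was 54 without CD replicate 4 and KD replicate 3 together. The count at an adjusted p under 0.05 was 0 in each of these fits, with RLE normalization and without the filter. Of the listed channel-associated genes, 1 passed the raw threshold with DESeq2 and 3 with the block, and 0 to 2 when 1 library was left out (Scn7a without CD replicate 3 and without KD replicate 1). The cause of these changes was not tested. The sign of a log2 fold change turned for Scn3b without KD replicate 3 (-0.10, and up to 0.54 without CD replicate 4), and for Scn9a (-0.084) and Scn2b (0.0098) without CD replicate 4 and KD replicate 3. The other signs held in all settings, the block included. The number of separated neighbours in level per length was 5 of 7 and ranged from 0 to 5 when 1 library was left out. With 6 mice the exact test cannot go below 0.03125, which it reaches only where all 6 go the same way. That value passes the adjustment only when 5 of the 7 pairs reach it, as they did without KD replicate 3. Those were not the same 5 pairs as with 7 mice. Scn8a then stood above Scn3b in all 6 mice, and this pair joined. Scn2a1 and Scn1a dropped out, since in CD replicate 1 Scn1a (61.7 CPM per kb) exceeded Scn2a1 (59.4). The order of levels was kept in 5 of the 7 runs that left out 1 mouse. Scn9a rested on 86 to 207 counts per library, so its values are the least precise of the 8.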

Other observations

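Several sodium channel genes of the peripheral nervous system were measured near the lower limit of these libraries. Scn11a, which encodes Nav1.9, had too few counts for the test, with 48 counts in KD replicate 3 and 1 to 10 counts in the other libraries. Scn10a, which encodes Nav1.8, had 45 counts in KD replicate 3 and 5 to 17 in the others. Scn4a, the channel of skeletal muscle, had at most 2 counts in any library, which is under the floor of 3 counts. The summed level of 7 sensory neuron markers, which include Scn10a and Scn11a, was 5.80 CPM in KD replicate 3 and 8.66 CPM in CD replicate 4. It was 1.47 to 2.29 CPM in the other 5 libraries. Scn10a (1.99 CPM) and Scn11a (2.12 CPM) themselves made up most of the sum in KD replicate 3. In CD replicate 4 they were at 0.158 and 0.0526 CPM. Nalcn, the sodium leak channel, was at 290.5 CPM in KD replicate 3 and at 198 to 247 CPM in the others.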
